A study of Mus musculus with 20 samples.

Results

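Macrophages that had been stimulated for 6 h with lipopolysaccharide (LPS) and interferon gamma (IFNg) were compared with the same kind of cells before the stimulus. The comparison used 4 of the 20 libraries of the series: both control (Ctrl) libraries taken at 6 h and both taken at 0 h. They were chosen by their labels, and every gene entered. Of 22165 genes in the table, 10663 had enough counts to be tested. The cells were bone marrow-derived macrophages of wild-type C57BL/6 mice, grown for 7 days in RPMI medium with m-CSF, the growth factor that turns marrow progenitors into macrophages. Cells of both groups received no dimethyl itaconate, the compound that the other 10 libraries of the series had been given before the stimulus. The labels state no dose for LPS or IFNg and no age or sex for the mice. They also do not say whether the replicates came from separate animals or cultures, so that the p-values measure only the spread between libraries. That spread was estimated from all 20 libraries of the series, not from the 4 compared alone.

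LPS is a component of the outer membrane of Gram-negative bacteria. It is sensed by the receptor TLR4, which activates NF-kB and MAP kinases through MyD88 and induces type I interferon through TRIF and IRF3. IFNg signals through JAK kinases and STAT factors, which drive IRF1, the guanylate-binding proteins and the antigen presentation machinery. In combination these signals give the classically activated macrophage, known for nitric oxide production, secretion of inflammatory cytokines and T cell-attracting chemokines, and a shift of metabolism towards glycolysis.

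Poly(A) RNA was primed with barcoded oligo-dT, so that reads come from transcript 3' ends, and the values are read counts per gene. The Ctrl libraries at 0 h held 8938983 and 7222277 counts and those at 6 h held 3655977 and 4144450. A count of 3 equals 0.240 and 0.302 CPM (counts scaled to a common library total) at 0 h and 1.07 and 0.896 CPM at 6 h, so that low levels are read less precisely at 6 h. Replicates correlated with r = 0.983 at 0 h and 0.975 at 6 h on the log2 CPM scale across genes, which are not independent replicates. The 50 most abundant genes took 19.4 and 20.4% of the counts at 0 h against 27.7 and 27.0% at 6 h. Counts are PCR reads without molecular identifiers named, so intervals and floors cover counting error only.

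All 10 macrophage markers had enough counts to be tested, and they summed to 4353 and 4187 CPM at 0 h and 4832 and 4939 CPM at 6 h. On the scale of library totals the direction turned, with 6093 and 5755 against 3696 and 3989 CPM. Levels here and below are CPM scaled by trimmed means of M values (TMM) unless a total is named. Among these Mertk, Cd14, Fcgr1 and Adgre1 rose (Adgre1 only with TMM or DESeq2 scaling and Fcgr1 not with library totals), Cx3cr1 and Csf1r fell, and Itgam, Cd68 and Lyz2 did not pass the test. The lysozyme gene Lyz2 stood at 1266 and 1113 CPM at 0 h and 1295 and 1169 CPM at 6 h and the endosomal marker Cd68 at 466 and 424 CPM at 0 h and 474 and 505 CPM at 6 h. The m-CSF receptor gene Csf1r stood at 229 and 203 CPM at 0 h and 103 and 131 CPM at 6 h, and its call (-0.89 ± 0.28, adjusted p = 0.0223) was lost without replicate 1 at 0 h (adjusted p = 0.125), replicate 2 at 0 h (0.0567) or replicate 1 at 6 h (0.197). T and NK cell markers summed to 3.76 and 3.02 CPM at 0 h and 10.4 and 20.3 CPM at 6 h, where Lck rose from 5 counts in all to 10.01 and 13.4 CPM, with Cd3e and Ncr1 at 0 in all 4 libraries. Fibroblast markers summed to 54.0 and 47.7 CPM at 0 h and 70.4 and 71.7 CPM at 6 h, and Dcn among them rose. Their share of the library totals went from 75.6 and 65.6 to 53.9 and 57.9 CPM. B cell markers summed to 9.30 to 13 CPM over the 4 libraries, with Igll1 at 0. Neutrophil markers summed to 531 and 488 CPM at 0 h and 382 and 377 CPM at 6 h, and 2 of their 9 tested members, Ltf and Retnlg, fell. Dendritic cell markers summed to 22.1 and 16.9 CPM at 0 h and 107 and 96.8 CPM at 6 h, where Ccr7, Fscn1 and Xcr1 rose, with Cd209a at 0. Xcr1 stood at 7.87 and 0.896 CPM at 6 h (5.34 ± 1.93, adjusted p = 0.046), so its rise rests mainly on replicate 1. Clec9a, Siglech and Bcl11a did not pass the test, and Flt3, which was not tested, had 12 and 7 counts at 0 h and 0 at 6 h. Mast cell markers summed to 4.08 and 3.73 CPM at 0 h and 42.2 and 56.2 CPM at 6 h, of which Hdc rose, with Fcer1a, Mcpt4 and Tpsb2 at 0. The part of these cell types in the results was not tested.

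Promoter sequence is shown for 6 genes from gene groups described here, each picked together with the motifs to be marked in it. They are examples that hold a match by choice, and do not show how common a motif is in a group. Shares over gene groups follow below the sequences. They are Cxcl10 and Il6 for chemokines and cytokines, Nfkbia for feedback inhibitors, Gbp2 and Gbp5 for interferon-inducible GTPases, and Mcm6 for DNA replication. Each is the 250 bases before the annotated start in RefSeq (GRCm38.p6), printed 5′ to 3′ on the gene's own strand, with matches in capitals. The motifs searched on both strands were kB (GGG, any 3 bases, TTCC), the element of NF-kB, and ISRE (GAAA, any 2 bases, GAAA), bound by IRF and STAT complexes. GAS (TTC, any 3 bases, GAA) is bound by STAT dimers, and E2F (TTTGGCGC) by cell cycle regulators. The E-box (CACGTG) was searched as well but is not marked in the printed windows. Overlapping matches of different motifs were counted for each. Capitals mark an ISRE at -213 and kB matches at -159 and -104 in Cxcl10 (chr5:92348890-92349139, minus strand), and a kB match at -44 in Il6 (chr5:30012864-30013113, plus strand). They mark a kB match at -29 in Nfkbia (chr12:55492648-55492897, minus strand) and an ISRE at -59 in Gbp2 (chr3:142620413-142620662, plus strand). Gbp5 (chr3:142496684-142496933, plus strand) holds GAS at -245 and -52, an ISRE at -165 and kB at -77. Mcm6 (chr1:128359706-128359955, minus strand) holds E2F at -110 and -47.
Cxcl10: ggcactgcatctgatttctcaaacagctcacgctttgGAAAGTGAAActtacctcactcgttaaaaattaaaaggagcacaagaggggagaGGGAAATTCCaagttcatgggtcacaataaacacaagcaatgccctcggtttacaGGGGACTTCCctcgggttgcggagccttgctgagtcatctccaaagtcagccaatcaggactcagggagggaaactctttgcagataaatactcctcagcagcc
Il6: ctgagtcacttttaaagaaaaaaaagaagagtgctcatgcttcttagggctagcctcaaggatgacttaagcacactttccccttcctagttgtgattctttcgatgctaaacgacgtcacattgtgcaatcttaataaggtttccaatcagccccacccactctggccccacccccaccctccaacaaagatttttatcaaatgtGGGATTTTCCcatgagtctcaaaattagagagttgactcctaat
Nfkbia: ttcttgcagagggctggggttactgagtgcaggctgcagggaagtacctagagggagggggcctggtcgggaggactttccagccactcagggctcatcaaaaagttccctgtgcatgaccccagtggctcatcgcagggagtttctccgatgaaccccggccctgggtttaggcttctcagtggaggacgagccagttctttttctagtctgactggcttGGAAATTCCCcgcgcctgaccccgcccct
Gbp2: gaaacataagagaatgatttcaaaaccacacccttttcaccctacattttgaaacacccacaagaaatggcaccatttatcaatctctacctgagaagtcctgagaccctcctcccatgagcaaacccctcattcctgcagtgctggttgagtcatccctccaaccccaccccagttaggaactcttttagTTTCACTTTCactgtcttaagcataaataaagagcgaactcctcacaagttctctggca
Gbp5: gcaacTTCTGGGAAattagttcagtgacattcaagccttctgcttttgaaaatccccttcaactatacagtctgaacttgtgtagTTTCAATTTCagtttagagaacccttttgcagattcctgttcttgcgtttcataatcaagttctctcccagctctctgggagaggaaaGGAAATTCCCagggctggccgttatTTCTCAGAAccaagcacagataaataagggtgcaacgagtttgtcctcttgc
Mcm6: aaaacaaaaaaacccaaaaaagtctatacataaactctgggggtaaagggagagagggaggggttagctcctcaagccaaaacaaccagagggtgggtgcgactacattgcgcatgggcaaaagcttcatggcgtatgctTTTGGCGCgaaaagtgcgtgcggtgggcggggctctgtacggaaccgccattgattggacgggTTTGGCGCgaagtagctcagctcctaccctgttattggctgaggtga

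Over the 8484 tested genes with a window, 6.27% held a kB match, 3.62% an ISRE, 7.28% a GAS and 0.978% an E2F match. Among the genes called higher at 6 h the shares were 9.30, 7.66, 8.60 and 0.704%, and among those called lower 5.43, 2.34, 6.39 and 1.28%. An E-box was in 10.3% of the windows of tested genes, 10.2% of those called higher and 13.5% of those called lower. Of 11 interferon-inducible GTPase genes with a window, 10 held an ISRE, 6 a GAS and 1, Gbp5, a kB match. An ISRE was in the window of 10 of 24 type I interferon-stimulated genes, and a kB match in that of 10 of 25 NF-kB regulators and 5 of 16 chemokine genes. Of 34 DNA replication genes with a window, 3 held an E2F match: Mcm5, Mcm6 and Pola1. A match is a description of the letters, and no binding was measured.

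At 6 h 2826 genes (26.5% of those tested) differed from 0 h at an adjusted p under 0.05 (edgeR quasi-likelihood test, Benjamini-Hochberg adjustment). Of these, 1626 (15.2%) were higher and 1200 (11.3%) lower. The words rose and fell are used below only for genes that passed this test. Large changes were common: 405 genes rose by at least 3 log2 units and 140 by at least 5, and 232 fell by at least 3 and 50 by at least 5. Genes called higher made up 25.7 and 25.4% of all counts at 0 h and 60.9 and 59.3% at 6 h. Genes called lower made up 13.8 and 14.8% at 0 h and 2.90 and 2.98% at 6 h. The plot of mean levels at 0 h and 6 h shows both sets on either side of the diagonal.

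**Figure D1:**
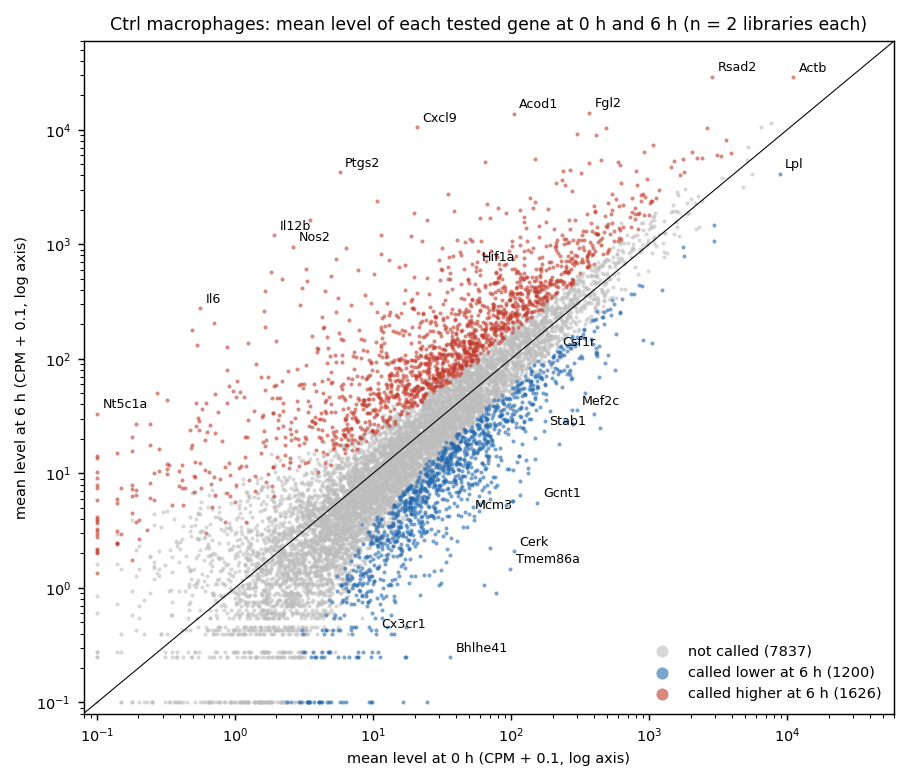
Mean level of each of the 10663 tested genes at 0 h (horizontal) and 6 h (vertical) in Ctrl macrophages, in CPM plus 0.1 on log axes, with 2 libraries per group and the diagonal as a line of equal level. Red points are the 1626 genes called higher, blue points the 1200 called lower, and Cxcl9, Acod1, Fgl2 and Rsad2 lie among the most abundant risers.

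The split between higher and lower calls depended on the scaling. TMM factors were 1.37 to 1.40 at 0 h and 0.765 to 0.808 at 6 h, and the median log2 fold change of all tested genes was -0.17. Factors computed only from genes whose mean was 32 CPM or more, here called the abundant-gene scaling, moved that median by a further -0.33 and gave 1244 genes higher and 1891 lower, so that 39.7% of calls were higher against 57.5%. Library totals without TMM factors moved it by -0.82 and gave 890 higher and 3688 lower, with 19.4% of calls higher. DESeq2 size factors gave 1654 and 1169. Under all 4 scalings 890 genes were called higher and 1169 lower, and no gene was called in opposite directions. Of the genes called higher, 38 had a negative fold change under another scaling. Which scaling lies closest to RNA per cell was not tested. Pooling of the samples had been guided by Actb, a cytoskeletal reference gene, which rose from 10288 and 11951 CPM to 27617 and 29699 CPM (1.37 ± 0.30, adjusted p = 0.00115) and had a log2 fold change of 0.55 (adjusted p = 0.115) with library totals. Gapdh stood at 53.5 and 75.9 CPM at 0 h and 76.5 and 61.5 CPM at 6 h (0.09 ± 0.33, adjusted p = 0.875), with overlapping groups, and its fold change was negative with the abundant-gene scaling (-0.24) and library totals (-0.73). It was negative also without replicate 1 at 0 h (-0.14) or replicate 1 at 6 h (-0.07).

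The number of calls also depended on which libraries shared the estimate of spread. A model of the 10 Ctrl libraries alone called 4697 genes (2362 higher, 2335 lower), against 2826 in the model of all 20 libraries, and a model of only the 4 libraries compared called 4643. Replicates given dimethyl itaconate, which enter the model of all 20, correlated with r = 0.934 to 0.944 on the log2 CPM scale. Those of Ctrl correlated with r = 0.975 to 0.983. Leaving out a library lowered the count to 1965 without replicate 1 at 0 h and to 1839 without replicate 2 at 0 h. It was 1855 without replicate 1 at 6 h and 1951 without replicate 2 at 6 h. In those 4 fits 1122 to 1330 genes were higher and 621 to 774 lower.

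**Figure D2:**
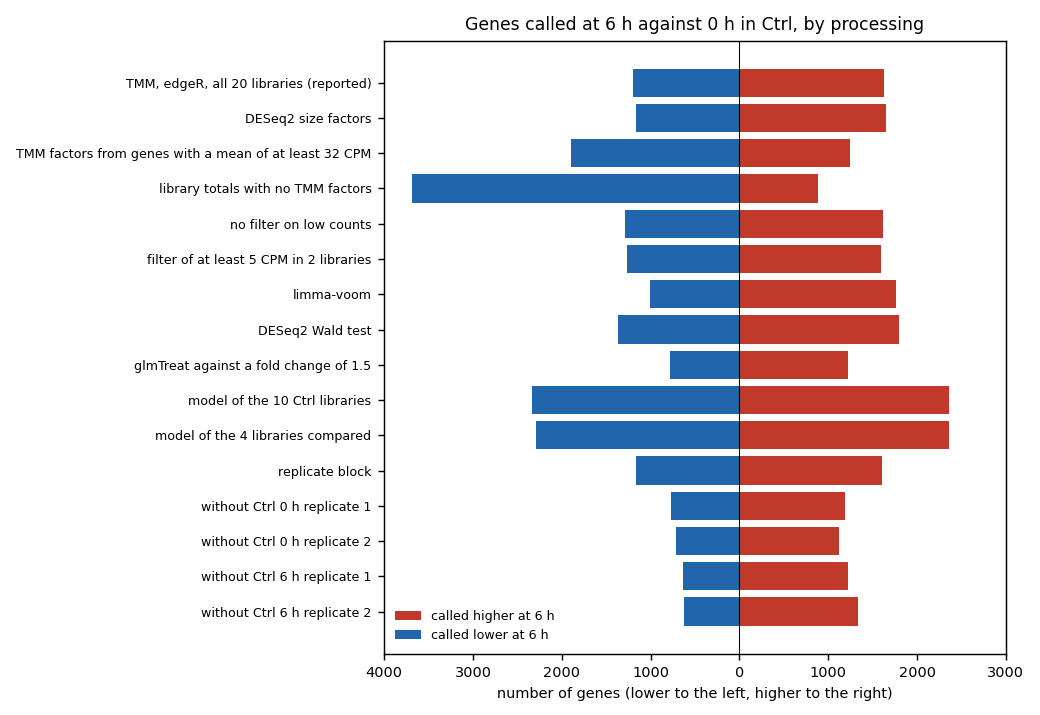
Number of genes called lower (blue, to the left) and higher (red, to the right) at 6 h against 0 h under each processing alternative, on a linear axis from 0. The reported fit gives 1200 and 1626 genes, and library totals without TMM factors give 3688 and 890.

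**Figure D3:**
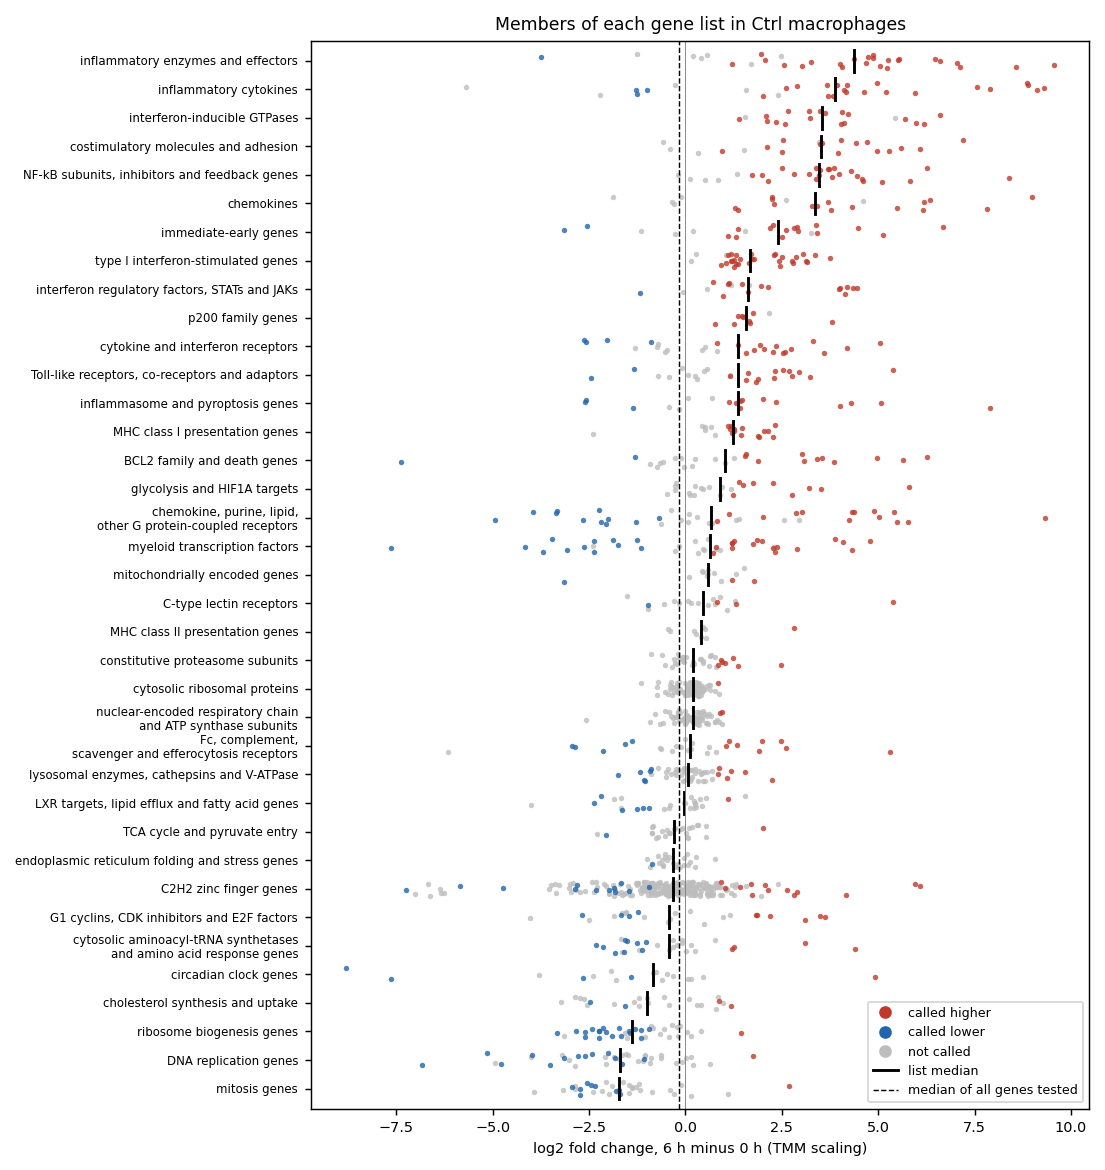
Log2 fold change, 6 h minus 0 h, of each tested member (point) of the gene lists, ordered by list median (black bar), with red for called higher, blue for called lower and grey for not called, where points of genes with no count in a group depend on the fit's prior count. The dashed line is the median of all tested genes (-0.17), and list medians run from -1.71 for mitosis genes to 4.36 for inflammatory enzymes and effectors.

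The 14 largest rises among genes of at least 20 CPM included secreted factors, enzymes and a feedback inhibitor with few counts at 0 h. Ptgs2, the inducible cyclooxygenase of prostaglandin synthesis, went from 5.35 and 5.94 CPM to 4758 and 3779 CPM (9.56 ± 0.46, adjusted p = 2.30e-13). Il12b, the subunit shared by IL12 and IL23, stood at 2.64 and 1.01 CPM at 0 h and 1504 and 892 CPM at 6 h (9.31 ± 0.55, adjusted p = 9.37e-12). Nos2, the inducible nitric oxide synthase, stood at 1.84 and 3.22 CPM at 0 h and 1302 and 609 CPM at 6 h (8.57 ± 0.56, adjusted p = 2.24e-11). In each of these genes both 6 h libraries lay far above both 0 h libraries, although the Nos2 replicates at 6 h differed from each other by more than those at 4 h, where they read 344 and 343 CPM. Edn1, encoding the vasoconstrictor endothelin, stood at 0.0799 and 0.705 CPM at 0 h and 194 and 161 CPM at 6 h (8.85 ± 0.73, adjusted p = 1.85e-09). Upp1, a uridine phosphorylase, stood at 1.68 and 1.41 CPM at 0 h and 376 and 403 CPM at 6 h (7.95 ± 0.44, adjusted p = 1.46e-12). Slamf1, an immune cell receptor, stood at 0.559 and 0.302 CPM at 0 h and 141 and 126 CPM at 6 h (8.17 ± 0.77, adjusted p = 2.57e-08). Groups were again fully apart. Serpina3f, a serine protease inhibitor of a family of near-identical copies, had a log2 fold change of 8.32 ± 0.46. Nt5c1a, a cytosolic nucleotidase, had no count at 0 h and 25.4 and 40.6 CPM at 6 h, at least 109-fold higher against a floor of 3 counts per library. Sele, the adhesion molecule E-selectin, had 2 counts at 0 h and 168 at 6 h, a ratio of 307 after scaling with a 95% counting interval of 83.6 to 2554. Tpbg, a membrane glycoprotein, had 4 counts at 0 h and 307 at 6 h, a ratio of 280.3 with an interval of 108 to 1035.

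Among the genes that rose by at least 3 log2 units, the 8 most abundant took 0.596 and 0.709% of all counts at 0 h and 8.29 and 7.72% at 6 h. Rsad2, the antiviral enzyme viperin, stood at 2355 and 3381 CPM at 0 h and 31881 and 26540.1 CPM at 6 h (3.35 ± 0.27, adjusted p = 6.02e-10). Fgl2, a fibrinogen-like secreted protein, stood at 383 and 358 CPM at 0 h and 14127 and 14185 CPM at 6 h (5.26 ± 0.32, adjusted p = 8.69e-12). Acod1, which makes itaconate from an intermediate of the citrate cycle, stood at 118 and 92.2 CPM at 0 h and 13391 and 14247 CPM at 6 h (7.04 ± 0.38, adjusted p = 9.80e-13). These genes were among the most abundant transcripts of the stimulated cells, and Rsad2 was well expressed before the stimulus. Cxcl9, Slamf7, Sdc4, Irf8 and Mmp13 complete the set. Sdc4, a heparan sulfate proteoglycan, had a log2 fold change of 4.93 ± 0.29, and Slamf7, a receptor of the SLAM family, of 4.43 ± 0.42. Mmp13, a collagenase, had 5.24 ± 0.34.

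Of 28 tested inflammatory cytokine genes, 20 rose and 3 fell, with a median log2 fold change of 3.87 against -0.17 for all tested genes. With the abundant-gene scaling and with library totals 18 rose. Il6 stood at 0.719 and 0.201 CPM at 0 h and 292 and 265 CPM at 6 h (9.11 ± 0.54, adjusted p = 7.77e-12). Il27, which together with Ebi3 forms IL27, stood at 3.60 and 3.22 CPM at 0 h and 1574 and 1685 CPM at 6 h (8.89 ± 0.41, adjusted p = 2.30e-13). Il1b, the substrate of the inflammasome, stood at 1.28 and 2.92 CPM at 0 h and 503 and 493 CPM at 6 h (7.91 ± 0.44, adjusted p = 2.98e-12). None of these genes exceeded 4 CPM at 0 h, and the 6 h replicates lay close to each other. Il1a had a log2 fold change of 7.57 ± 0.46. Tnf, an early cytokine, stood at 11.1 and 13.9 CPM at 0 h and 269 and 345 CPM at 6 h (4.62 ± 0.31, adjusted p = 2.32e-11). The anti-inflammatory cytokine gene Il10 stood at 3.60 and 6.14 CPM at 0 h and 52.6 and 71.7 CPM at 6 h (3.68 ± 0.63, adjusted p = 7.12e-05). Groups were apart in both genes. The fallers, named after their values were seen because they are few, were the growth factor genes Igf1 (-1.0 ± 0.26) and Pdgfb (-1.27 ± 0.44) and Tgfbi (-1.25 ± 0.38), an extracellular matrix protein, of which 1 or 2 kept the call when a library was left out.

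Chemokine genes rose in 16 of 22 tested members and fell in none, with a median of 3.35. With library totals 14 rose and 3 fell. Cxcl9, a ligand of the chemokine receptor CXCR3 on T cells, stood at 26.8 and 14.9 CPM at 0 h and 10807 and 10402 CPM at 6 h (8.99 ± 0.47, adjusted p = 5.17e-13). Cxcl10, another CXCR3 ligand, whose promoter window is printed above, stood at 65.8 and 64.6 CPM at 0 h and 4464 and 6053 CPM at 6 h (6.33 ± 0.31, adjusted p = 2.30e-13). Cxcl2, which attracts neutrophils, stood at 13 and 9.47 CPM at 0 h and 795 and 847 CPM at 6 h (6.18 ± 0.36, adjusted p = 3.90e-12). All 3 genes kept their groups apart, with Cxcl9 the most abundant at 6 h. Ccl5 began higher, at 332 and 312 CPM, and reached 3887 and 4522 CPM (3.71 ± 0.29, adjusted p = 4.19e-10).

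NF-kB subunits, inhibitors and feedback genes rose in 23 of 28 members and fell in none, with a median of 3.47, and 23 rose under each of the 4 scalings. Socs3, a suppressor of cytokine signalling, stood at 1.12 and 2.32 CPM at 0 h and 586 and 554 CPM at 6 h (8.39 ± 0.51, adjusted p = 7.77e-12). Its relative Socs1, which restrains the IFNg receptor, stood at 7.91 and 7.55 CPM at 0 h and 583 and 604 CPM at 6 h (6.26 ± 0.32, adjusted p = 3.80e-13). Tnip3, a partner of the inhibitor A20, stood at 72.9 and 60.2 CPM at 0 h and 2268 and 2264 CPM at 6 h (5.09 ± 0.29, adjusted p = 2.17e-12). Replicates at 6 h were within a narrow range in each. Traf1, an adaptor of TNF receptors, had a log2 fold change of 5.81 ± 0.34, and Nfkbiz, a nuclear cofactor of NF-kB, of 4.44 ± 0.29. Nfkbia, the classical inhibitor whose promoter is printed above, was named outside the rule and stood at 334 and 405 CPM at 0 h and 4438 and 5899.9 CPM at 6 h (3.81 ± 0.29, adjusted p = 2.86e-10).

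Immediate-early genes are switched on within minutes by existing factors and often decline soon after. At 6 h 15 of 22 tested members were above 0 h and 2 were below, with a median of 2.39. Not all of the 15 had risen by 1 h. Nr4a2 stood at 2.80 and 5.14 CPM at 0 h and 3.92 and 4.51 CPM at 1 h. With library totals 12 rose and 4 fell. Dusp2, a MAP kinase phosphatase, stood at 3.28 and 2.42 CPM at 0 h and 269 and 318 CPM at 6 h (6.67 ± 0.60, adjusted p = 5.87e-09). Junb, an AP-1 subunit, stood at 92.1 and 121 CPM at 0 h and 546 and 662 CPM at 6 h (2.50 ± 0.31, adjusted p = 1.02e-06). Klf6, a zinc finger factor, stood at 968 and 878 CPM at 0 h and 6676 and 6219 CPM at 6 h (2.80 ± 0.27, adjusted p = 1.05e-08). In all 3 the groups were apart. Log2 fold changes of the other risers were 4.47 ± 0.38 for Maff, 5.13 ± 1.25 for Nr4a3, 3.42 ± 0.40 for Dusp5, 3.38 ± 0.32 for Dusp1 and 2.92 ± 0.40 for Ier3. All of these genes encode transcription factors, phosphatases or other regulators of the same early response. The values were 2.90 ± 0.56 for Nr4a2, 2.62 ± 0.33 for Btg2, 2.28 ± 0.45 for Ier2 and 2.18 ± 0.42 for Fosl2. Jund (1.30 ± 0.32) lost its call without replicate 1 at 6 h (adjusted p = 0.0749) and Atf3 (1.11 ± 0.27) without replicate 2 at 0 h (0.0971). Egr1, at 4.64 and 3.12 CPM at 0 h and 13.9 and 6.27 CPM at 6 h (1.35 ± 0.38, adjusted p = 0.0102), lost it without replicate 2 at 0 h (adjusted p = 0.115) or replicate 1 at 6 h (0.372).

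The other immediate-early genes fell or did not pass the test. Myc, a growth regulator, stood at 8.95 and 10.8 CPM at 0 h and 2.50 and 0.896 CPM at 6 h (-2.56 ± 0.64, adjusted p = 0.00382), and the call was lost without replicate 2 at 6 h (adjusted p = 0.0928). Egr2 had 2 counts at 6 h, a ratio of 0 h to 6 h of 9.45 with a counting interval of 2.52 to 79.6, and its call was lost without replicate 1 at 6 h (adjusted p = 0.0927). Fos stood at 58.4 and 61.7 CPM at 0 h and 44.3 and 10.5 CPM at 6 h (-1.15 ± 0.47, adjusted p = 0.0771), with replicates at 6 h that differed several-fold. It was called lower without replicate 1 at 6 h (-2.52, adjusted p = 0.00198), with the abundant-gene scaling (-1.48, 0.0189) and library totals (-1.98, 0.00179), and under 3 other alternatives. Jun stood at 358 and 441 CPM at 0 h and 299 and 364 CPM at 6 h (-0.27 ± 0.30, adjusted p = 0.563), with overlapping groups, and was called lower with library totals (-1.08, adjusted p = 0.00518). Nr4a1 (3.25 ± 1.39, adjusted p = 0.0916), Fosl1 (1.56 ± 1.0, adjusted p = 0.278) and Ier5 (0.20 ± 0.31, adjusted p = 0.681) did not pass the test either, although limma-voom (adjusted p = 0.0189) and 3 other alternatives called Nr4a1, and the fold change of Ier5 was negative with the abundant-gene scaling (-0.12) and library totals (-0.61).

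How far early genes had come down was read from 6 h against 1 h, a comparison that shares the 6 h libraries with the first. It called 2252 genes (21.1%), of which 1250 (11.7%) were higher at 6 h than at 1 h and 1002 (9.4%) lower. Without replicate 2 at 1 h it called 1472, with 833 higher and 639 lower, and without replicate 2 at 6 h 1471. Without replicate 1 at 6 h 609 were lower, and without replicate 2 at 6 h 521. Of the immediate-early genes 8 were lower at 6 h than at 1 h and 3 higher. Among the latter, Nr4a2 stood at 3.92 and 4.51 CPM at 1 h and 30.4 and 29.0 CPM at 6 h (2.80 ± 0.57, adjusted p = 0.000672). Jund, also among them, stood at 179 and 181 CPM at 1 h and 457 and 305 CPM at 6 h (1.08 ± 0.32, adjusted p = 0.0152). Egr1 stood at 504 and 584 CPM at 1 h and 13.9 and 6.27 CPM at 6 h (log2 fold change -5.76 ± 0.40, adjusted p = 9.35e-10). Jun stood at 2088 and 1541 CPM at 1 h and 299 and 364 CPM at 6 h (-2.45 ± 0.31, adjusted p = 2.91e-06). Cxcl2 stood at 6875 and 7885 CPM at 1 h and 795 and 847 CPM at 6 h (-3.17 ± 0.31, adjusted p = 6.30e-08). In Egr1, Jun and Cxcl2 the 1 h libraries were the higher ones in every case. Tnf stood at 816 and 643 CPM at 1 h and 269 and 345 CPM at 6 h (-1.25 ± 0.26, adjusted p = 0.000993), and its mean was highest at 2 h. Zfp36, whose product destabilises cytokine mRNA, stood at 1130.3 and 1164 CPM at 1 h and 383 and 433 CPM at 6 h (-1.49 ± 0.26, adjusted p = 0.00016). Olr1, a scavenger receptor for oxidised lipoprotein, stood at 157 and 139.6 CPM at 1 h and 19.3 and 13.7 CPM at 6 h (-3.17 ± 0.37, adjusted p = 1.15e-06).

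Late genes went the other way. Il27 stood at 9.40 and 12.6 CPM at 1 h and 1574 and 1685 CPM at 6 h (7.19 ± 0.38, adjusted p = 6.09e-12) and Nos2 at 9.40 and 11.6 CPM at 1 h and 1302 and 609 CPM at 6 h (6.49 ± 0.50, adjusted p = 3.60e-09). Hif1a, the oxygen-regulated transcription factor, stood at 117 and 117 CPM at 1 h and 757 and 516 CPM at 6 h (2.44 ± 0.28, adjusted p = 6.72e-07). The 6 h libraries were above the 1 h libraries in all 3. Socs3 (0.25 ± 0.36, adjusted p = 0.695) and Irf1 (-0.07 ± 0.26, adjusted p = 0.889) did not pass the test between 1 h and 6 h. Of the 1626 genes called higher at 6 h, the highest of the 4 stimulated means was at 1 h for 22, at 2 h for 132, at 4 h for 560 and at 6 h for 912.

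**Figure D4:**
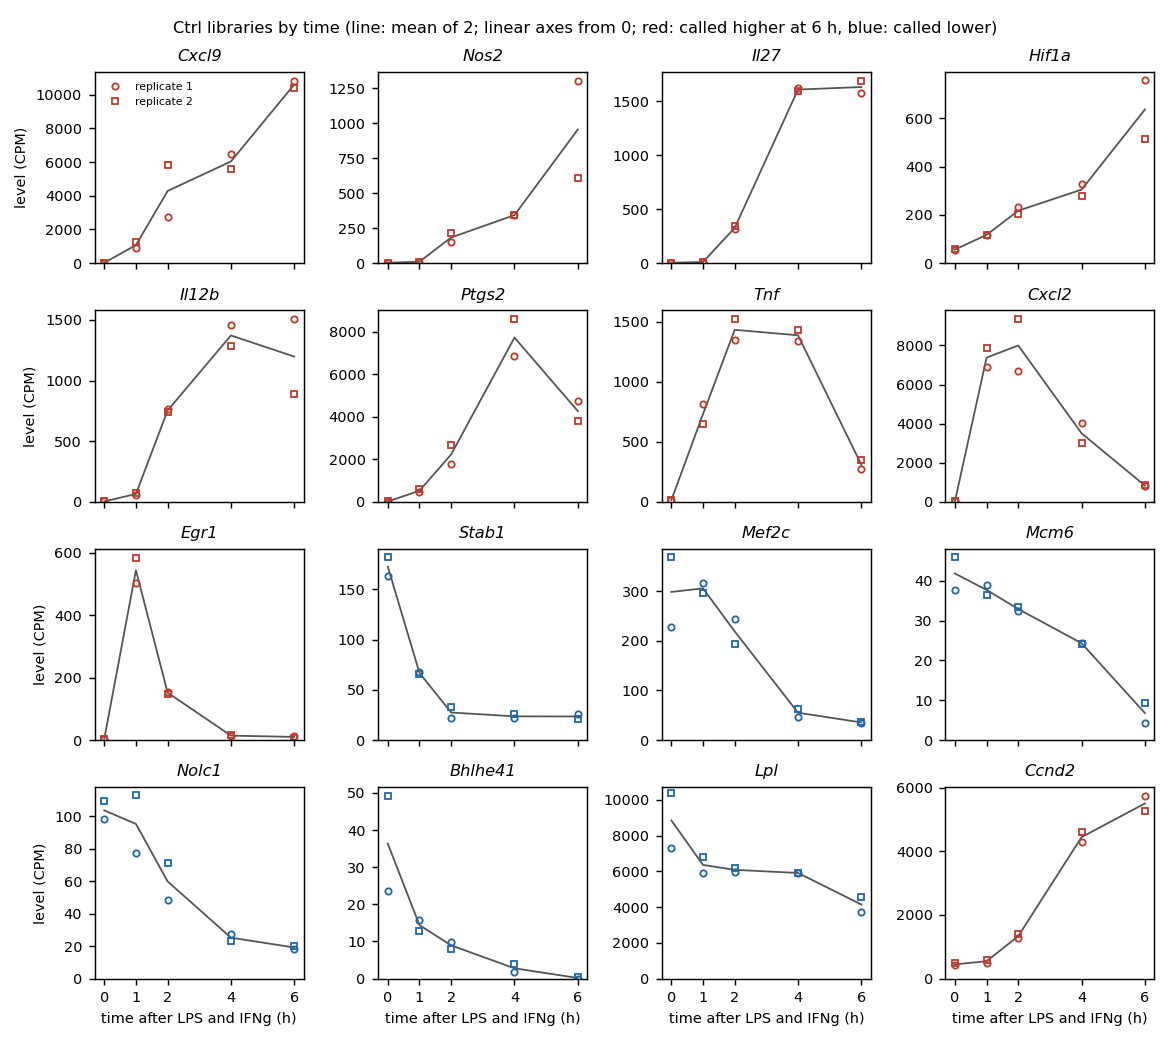
Level in CPM (vertical, linear from 0) of 16 genes in each Ctrl library against time after LPS and IFNg (horizontal, 0 to 6 h), with circles for replicate 1, squares for replicate 2, a line through the means, red for genes called higher at 6 h than at 0 h and blue for genes called lower. Cxcl9, Nos2 and Hif1a were highest at 6 h, Tnf, Cxcl2 and Egr1 peaked at 1 or 2 h, and Stab1, Mef2c and Mcm6 had their lowest mean at 6 h.

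Inflammatory enzymes and effectors rose in 24 of 31 members and 1 fell, with a median of 4.36. With library totals 21 rose and 2 fell. Sod2, the mitochondrial superoxide dismutase, stood at 50.7 and 67.9 CPM at 0 h and 1745 and 1677 CPM at 6 h (4.85 ± 0.30, adjusted p = 9.37e-12). Slc7a2, an arginine transporter named outside the rule, stood at 4.56 and 4.23 CPM at 0 h and 451 and 331 CPM at 6 h (6.47 ± 0.54, adjusted p = 1.45e-09). Both 6 h libraries were above both 0 h libraries in each of these genes. Arg1, the arginase of alternatively activated macrophages, stood at 16.2 and 16.2 CPM at 0 h and 9.30 and 4.48 CPM at 6 h (-1.25 ± 0.53, adjusted p = 0.0885) and did not pass the test. Plau, a plasminogen activator and the list's only faller, stood at 103 and 162 CPM at 0 h and 9.66 and 10.2 CPM at 6 h (-3.74 ± 0.45, adjusted p = 4.96e-07).

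Type I interferon-stimulated genes rose in 29 of 32 members and fell in none, with a median of 1.67, but only 22 rose with the abundant-gene scaling and 16 with library totals. Cmpk2, the nucleotide kinase next to viperin, stood at 302 and 187 CPM at 0 h and 3788 and 2812 CPM at 6 h (3.75 ± 0.32, adjusted p = 1.69e-09). Usp18, which removes ISG15 and dampens the type I receptor, stood at 153 and 107 CPM at 0 h and 799 and 1345 CPM at 6 h (3.05 ± 0.31, adjusted p = 2.92e-08). Oasl1 had a log2 fold change of 2.87 ± 0.27. Rsad2, given above, is a member as well and was the most abundant of those named here.

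Interferon-inducible GTPases, which attack the vacuoles of intracellular microbes, rose in 18 of 20 members and fell in none, with a median of 3.55. With library totals 15 rose. Gbp5 stood at 19.0 and 20.2 CPM at 0 h and 2621 and 1161 CPM at 6 h (6.59 ± 0.43, adjusted p = 2.24e-11). Gbp2 stood at 238 and 183 CPM at 0 h and 3886 and 2986 CPM at 6 h (4.03 ± 0.29, adjusted p = 7.83e-11). Gbp7 stood at 244 and 229 CPM at 0 h and 4702 and 4040.1 CPM at 6 h (4.21 ± 0.28, adjusted p = 3.52e-11). Groups were apart, although the Gbp5 replicates at 6 h differed by about the fold seen for Nos2. Gbp4 had a log2 fold change of 5.98 ± 0.37. The promoter windows of Gbp2 and Gbp5 printed above each hold an ISRE. Members such as Tgtp1 and Tgtp2 are near-identical copies, and how their shared reads were counted is not given in the sources used here.

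The p200 family, which includes DNA sensors, rose in 9 of 10 members, with a median of 1.56, and in 4 with library totals. Ifi205 stood at 99.7 and 149 CPM at 0 h and 1784 and 1657 CPM at 6 h (3.79 ± 0.44, adjusted p = 3.31e-07), while Mndal, Ifi203 and Ifi211 were abundant at 0 h and had log2 fold changes of 1.67 ± 0.27, 1.76 ± 0.29 and 1.64 ± 0.25. These genes lie in a cluster of related copies, so that their counts may be shared.

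Interferon regulatory factors, STATs and JAKs rose in 14 of 19 members, with a median of 1.62, and in 8 with library totals. Irf1, a factor induced by IFNg, stood at 106 and 77.7 CPM at 0 h and 2015 and 1713 CPM at 6 h (4.34 ± 0.30, adjusted p = 6.15e-11). Irf8, a myeloid factor, stood at 348 and 472 CPM at 0 h and 9212 and 8703 CPM at 6 h (4.45 ± 0.36, adjusted p = 7.49e-10). Stat3, which carries IL6 and IL10 signals, stood at 139.9 and 157 CPM at 0 h and 2281 and 2371 CPM at 6 h (3.97 ± 0.28, adjusted p = 7.01e-11). Irf8 was by far the most abundant of these at 6 h. Stat5a had a log2 fold change of 4.01 ± 0.36. The list's only faller was Stat6, which carries IL4 signals, at 164 and 202 CPM at 0 h and 69.4 and 91.4 CPM at 6 h (-1.19 ± 0.28, adjusted p = 0.00243). Its call was lost without replicate 1 at 6 h.

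Genes of MHC class I presentation rose in 14 of 20 members and fell in none, with a median of 1.22. Only 9 rose without replicate 1 at 0 h. With the abundant-gene scaling 10 rose and 1 fell, and with library totals 7 rose and 1 fell. Tap1, the peptide transporter, stood at 74.1 and 97.8 CPM at 0 h and 442 and 384 CPM at 6 h (2.26 ± 0.29, adjusted p = 1.34e-06). Nlrc5, the transactivator of class I genes, stood at 32 and 36.2 CPM at 0 h and 173 and 171 CPM at 6 h (2.33 ± 0.31, adjusted p = 2.36e-06). Psme2, a proteasome activator subunit, had a log2 fold change of 2.15 ± 0.30, and the class I gene H2-Q6, one of several similar copies, of 2.03 ± 0.33. Both groups were apart in each.

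Of 9 tested MHC class II genes 1 rose (11.1%, against 15.2% of all tested genes) and none fell, with a median of 0.41. With library totals 2 fell. The riser was Ciita, the class II transactivator, at 2.80 and 2.72 CPM at 0 h and 29.7 and 9.86 CPM at 6 h (2.82 ± 0.75, adjusted p = 0.00625), and the call was lost without replicate 1 at 0 h (adjusted p = 0.0579), replicate 2 at 0 h (0.0614) or replicate 1 at 6 h (0.177). Cd74, the invariant chain, stood at 70.9 and 55.3 CPM at 0 h and 79.4 and 104 CPM at 6 h (0.54 ± 0.32, adjusted p = 0.237) and H2-Ab1 at 52.7 and 53.3 CPM at 0 h and 66.5 and 84.5 CPM at 6 h (0.51 ± 0.40, adjusted p = 0.391), and with library totals their fold changes were negative (-0.28 and -0.30). The cathepsin gene Ctss stood at 6093 and 5052 CPM at 0 h and 3752 and 4416 CPM at 6 h (-0.45 ± 0.33, adjusted p = 0.35) and was called lower with library totals (-1.27, adjusted p = 0.00388).

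Costimulatory and adhesion genes rose in 15 of 20 members and fell in none, with a median of 3.51. With library totals 13 rose and 1 fell. Cd69, an early activation marker, stood at 5.99 and 6.55 CPM at 0 h and 881 and 974 CPM at 6 h (7.21 ± 0.37, adjusted p = 5.17e-13). Cd40, which receives T cell help, stood at 12.5 and 36.5 CPM at 0 h and 1428 and 1864 CPM at 6 h (6.08 ± 0.43, adjusted p = 9.40e-11). Icam1, a ligand for leukocyte integrins, stood at 17.0 and 16.7 CPM at 0 h and 626 and 689 CPM at 6 h (5.28 ± 0.29, adjusted p = 1.03e-12). Cd40 was the most abundant of these at 6 h. Cd83 had a log2 fold change of 5.60 ± 0.45.

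Toll-like receptors and their adaptors rose in 13 of 24 members and fell in 2, with a median of 1.36. With library totals 9 rose and 5 fell. Clec4e, the glycolipid receptor Mincle, stood at 15.0 and 15.5 CPM at 0 h and 642 and 627 CPM at 6 h (5.38 ± 0.41, adjusted p = 2.40e-10). Myd88, the central adaptor, stood at 59.7 and 53.4 CPM at 0 h and 330.4 and 321 CPM at 6 h (2.53 ± 0.33, adjusted p = 1.76e-06). Both 6 h libraries were above both 0 h libraries in these genes. Nod1, a sensor of peptidoglycan, had a log2 fold change of 3.23 ± 0.36, and Irak2, a kinase of the pathway, of 2.67 ± 0.34. The fallers were Tlr13, the sensor of bacterial ribosomal RNA, at 216 and 165 CPM at 0 h and 29.7 and 39.7 CPM at 6 h (-2.45 ± 0.34, adjusted p = 3.48e-06), and Irak4 (-1.34 ± 0.34, adjusted p = 0.00404). Without replicate 2 at 6 h 1 member of the list fell, and without replicate 1 at 0 h 3 did. The LPS receptor gene Tlr4, named outside the rule, stood at 40.9 and 36.5 CPM at 0 h and 25 and 32 CPM at 6 h (-0.44 ± 0.32, adjusted p = 0.352).

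Cytokine receptor genes split. Of 27 tested, 15 rose and 4 fell, with a median of 1.37, and with library totals 12 rose and 8 fell. Il15ra, which presents IL15, stood at 6.79 and 6.45 CPM at 0 h and 185 and 255 CPM at 6 h (5.05 ± 0.38, adjusted p = 2.22e-10). Il4ra stood at 20.6 and 21.5 CPM at 0 h and 241 and 263 CPM at 6 h (3.58 ± 0.28, adjusted p = 4.32e-10). Tnfrsf1b, a TNF receptor, stood at 115 and 119 CPM at 0 h and 1210.1 and 1119.9 CPM at 6 h (3.32 ± 0.31, adjusted p = 1.1e-08). All 3 were apart between groups, while Il10ra had a log2 fold change of 2.52 ± 0.30. Besides Csf1r the fallers were the IL6 receptor Il6ra, at 172 and 182 CPM at 0 h and 32.5 and 25.1 CPM at 6 h (-2.62 ± 0.32, adjusted p = 6.71e-07), its signalling chain Il6st (-2.04 ± 0.36) and Tgfbr1 (-2.59 ± 0.45).

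G protein-coupled and related purine receptors moved in both directions. Of 38 tested members 14 rose and 11 fell, with a median of 0.67, and 14 fell with library totals. Without replicate 2 at 0 h 7 of these genes fell, and without replicate 1 at 6 h 6 fell. Ccrl2, a receptor that presents chemerin, stood at 12.2 and 7.86 CPM at 0 h and 528 and 573 CPM at 6 h (5.77 ± 0.33, adjusted p = 2.18e-12). Lpar1, a lysophosphatidic acid receptor, stood at 7.59 and 6.14 CPM at 0 h and 289 and 301 CPM at 6 h (5.42 ± 0.45, adjusted p = 1.21e-09). Gpr84, a receptor for medium-chain fatty acids, had a log2 fold change of 5.48 ± 0.48, and Gpr132 of 4.90 ± 0.40. Cx3cr1, the fractalkine receptor, had 9.19 and 11.7 CPM at 0 h and 2 counts in all at 6 h. Its ratio of 0 h to 6 h was 31.6 with a counting interval of 8.66 to 263, and the call (adjusted p = 0.0139) was lost without replicate 2 at 0 h (0.0582) or replicate 1 at 6 h (0.141).

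Among Fc, complement, scavenger and efferocytosis receptors 8 of 26 rose and 5 fell, with a median of 0.11, and with library totals 5 rose and 14 fell. Without replicate 1 at 6 h 3 fell. Stab1, a scavenger receptor of tissue macrophages, stood at 163 and 182 CPM at 0 h and 26.1 and 20.9 CPM at 6 h (-2.88 ± 0.31, adjusted p = 8.81e-08). Lrp1, a receptor for lipoproteins and dying cells, stood at 321 and 234 CPM at 0 h and 32.2 and 39.7 CPM at 6 h (-2.95 ± 0.34, adjusted p = 2.32e-07). Fcgr4, an activating Fc receptor, stood at 82.3 and 74.4 CPM at 0 h and 528 and 420.3 CPM at 6 h (2.60 ± 0.31, adjusted p = 4.11e-07). Stab1 and Lrp1 were thus lower in both 6 h libraries and Fcgr4 higher. Scavenger receptors did not all move 1 way, since Olr1 rose. The efferocytosis receptors Mertk and Axl rose as well, and the other fallers were Gas6, Itgb5 and Scarb1. C-type lectin receptors had 3 risers and 1 faller among 18 tested, where the shares over all tested genes are 15.2% and 11.3%, and 1 riser and 2 fallers with library totals. Of these Siglec1 (-0.96 ± 0.27, adjusted p = 0.0086) lost its call without either 6 h replicate (adjusted p = 0.0516 and 0.0716). Clec4a1 had a log2 fold change of 1.31 ± 0.28. Clec4d (0.81 ± 0.25, adjusted p = 0.0155) lost its call in all 4 fits without a library (adjusted p from 0.0629 to 0.0983), and its fold change was -0.0051 with library totals.

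Transcription factors of the myeloid lineage moved in both directions. Of 40 tested 17 rose and 12 fell, with a median of 0.65, and with library totals 10 rose and 14 fell. Batf2, a partner of IRF1, stood at 11.7 and 12.1 CPM at 0 h and 241 and 236 CPM at 6 h (4.33 ± 0.28, adjusted p = 1.65e-11). Hivep2, a zinc finger factor that binds kB-like sites, stood at 14 and 8.56 CPM at 0 h and 226 and 155 CPM at 6 h (4.07 ± 0.42, adjusted p = 3.76e-08). Klf4 stood at 22.5 and 26.5 CPM at 0 h and 88.7 and 88.1 CPM at 6 h (1.85 ± 0.34, adjusted p = 0.000181). In contrast Mef2c stood at 228 and 369 CPM at 0 h and 34.7 and 36.4 CPM at 6 h (-3.07 ± 0.32, adjusted p = 4.30e-08). Bhlhe41, a transcriptional repressor found in tissue macrophages, had 23.6 and 49.1 CPM at 0 h and 1 count in all at 6 h. Its ratio of 0 h to 6 h was 214, with a counting interval of 38.3 to 8467. The differentiation factor Cebpa (-4.16 ± 0.69, adjusted p = 5.39e-05), named outside the rule, also fell.

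Of 23 tested glycolysis genes and HIF1A targets 9 rose and none fell, with a median of 0.90, while 6 rose and 3 fell with library totals. Slc2a6, a hexose transporter, stood at 4.56 and 3.83 CPM at 0 h and 227 and 239 CPM at 6 h (5.79 ± 0.52, adjusted p = 3.89e-09). Hif1a stood at 55.4 and 56.9 CPM at 0 h and 757 and 516 CPM at 6 h (3.5 ± 0.29, adjusted p = 1.34e-09). Pfkfb3, which makes the activator of phosphofructokinase, stood at 12.3 and 12.5 CPM at 0 h and 122 and 105 CPM at 6 h (3.19 ± 0.44, adjusted p = 3.78e-06). Groups did not overlap. Slc2a1, the main glucose transporter, had a log2 fold change of 2.27 ± 0.31. Of the enzymes of the core pathway, Pfkp, Hk3 and Hk2 rose. Hk1, Gpi1, Pfkl, Aldoa, Tpi1, Gapdh, Pgk1, Pgam1, Eno1, Pkm and Ldha did not pass the test. Ldha stood at 153 and 154 CPM at 0 h and 124 and 138 CPM at 6 h (-0.23 ± 0.31, adjusted p = 0.636). Pkm stood at 239 and 239 CPM at 0 h and 314 and 315 CPM at 6 h (0.40 ± 0.27, adjusted p = 0.309). Apart from Gapdh, these enzymes were named outside the rule.

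Of 27 genes of the citrate cycle and pyruvate entry 1 rose and 1 fell, with a median of -0.31, although 12 fell with library totals. The riser was Mpc1, a subunit of the mitochondrial pyruvate carrier, at 23.8 and 18.8 CPM at 0 h and 96.9 and 75.9 CPM at 6 h (2.02 ± 0.33, adjusted p = 3.79e-05). The faller was Idh1, the cytosolic isocitrate dehydrogenase, at 44.9 and 50.3 CPM at 0 h and 11.1 and 11.6 CPM at 6 h (-2.06 ± 0.37, adjusted p = 0.000116). Ogdh stood at 101 and 115 CPM at 0 h and 75.1 and 67.5 CPM at 6 h (-0.60 ± 0.28, adjusted p = 0.125) and Suclg2 at 34.9 and 39.3 CPM at 0 h and 19.3 and 24.5 CPM at 6 h (-0.76 ± 0.37, adjusted p = 0.148), and both were called lower with the abundant-gene scaling (-0.93 and -1.08) and library totals (-1.42 and -1.57). Nuclear-encoded respiratory chain subunits had 2 risers among 72, with a median of 0.19, but none rose and 17 fell with library totals. Both risers, Uqcrfs1 (0.95 ± 0.32, adjusted p = 0.0269) and Atp5f1 (0.90 ± 0.31, adjusted p = 0.0346), lost their calls in all 4 fits without a library (adjusted p from 0.0654 to 0.201).

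Cholesterol synthesis and uptake genes had a median of -1.01, with 2 of 23 called higher and 2 lower. These shares, 8.70% each, were below those over all tested genes (15.2% and 11.3%). In the model of the 10 Ctrl libraries 9 were lower. Msmo1, a sterol oxidase, stood at 31.4 and 33.8 CPM at 0 h and 10.7 and 11.1 CPM at 6 h (-1.58 ± 0.46, adjusted p = 0.011), and its call was lost without replicate 2 at 0 h (adjusted p = 0.0536), replicate 1 at 6 h (0.0808) or replicate 2 at 6 h (0.0739). Stard4, a sterol carrier, stood at 6.39 and 6.45 CPM at 0 h and 1.07 and 1.19 CPM at 6 h (-2.48 ± 0.88, adjusted p = 0.0393), and was not called in any fit without a library (adjusted p from 0.123 to 0.190). Both genes were nonetheless lower in both 6 h libraries. Of the risers, Insig1 (0.86 ± 0.32), which retains the sterol sensor in the endoplasmic reticulum, lost its call in all 4 of those fits, with adjusted p from 0.108 to 0.214. It was not called either with the abundant-gene scaling (adjusted p = 0.208) or library totals (0.920).

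Lipid handling genes had 1 riser and 6 fallers among 27, with a median of -0.04, and 12 fallers with library totals. Lpl, lipoprotein lipase, was among the most abundant transcripts before the stimulus and stood at 7328 and 10372 CPM at 0 h and 3732 and 4552 CPM at 6 h (-1.1 ± 0.24, adjusted p = 0.00111). Acadm, the medium-chain acyl-CoA dehydrogenase of fatty acid oxidation, stood at 52.9 and 83.7 CPM at 0 h and 9.66 and 16.4 CPM at 6 h (-2.38 ± 0.38, adjusted p = 2.61e-05). Both genes were lower in both 6 h libraries. Fabp5, a fatty acid carrier, stood at 799 and 1681 CPM at 0 h and 366 and 432 CPM at 6 h (-1.64 ± 0.40, adjusted p = 0.00291), and its call was lost without replicate 2 at 0 h (adjusted p = 0.124). Abcg1, a cholesterol exporter, stood at 228 and 227 CPM at 0 h and 463 and 513 CPM at 6 h (1.1 ± 0.25, adjusted p = 0.00165), and its call was lost with library totals (log2 fold change 0.29).

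Genes of DNA replication and mitosis had the lowest medians of the lists examined. Of 40 replication genes 13 fell and 1 rose, with a median of -1.69, and of 33 mitosis genes 9 fell and 1 rose, with a median of -1.71. With library totals 22 and 16 fell. Without replicate 2 at 0 h, replicate 1 at 6 h or replicate 2 at 6 h 8, 7 and 6 replication genes fell. Without replicates 1 and 2 at 0 h in turn 3 and 3 mitosis genes fell, and without replicates 1 and 2 at 6 h 6 and 1. Mcm3, a subunit of the replicative helicase, stood at 38.4 and 61.1 CPM at 0 h and 3.22 and 5.38 CPM at 6 h (-3.51 ± 0.45, adjusted p = 1.50e-06). Mcm6, another subunit, whose promoter window with E2F matches is printed above, stood at 37.7 and 45.9 CPM at 0 h and 4.29 and 9.26 CPM at 6 h (-2.60 ± 0.39, adjusted p = 1.51e-05). Rfc1, the clamp loader subunit, stood at 142 and 112 CPM at 0 h and 20.03 and 26.9 CPM at 6 h (-2.43 ± 0.40, adjusted p = 5.06e-05). In each the 0 h libraries were several-fold above the 6 h libraries. Mcm2 had 2 counts in all at 6 h, and its ratio of 0 h to 6 h was 28.9 with a counting interval of 7.90 to 240. In bulk RNA fewer cells of a type and less RNA per cell cannot be told apart.

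Topoisomerase Top2a, which untangles replicated DNA, stood at 69.6 and 47.0 CPM at 0 h and 16.4 and 16.7 CPM at 6 h (-1.81 ± 0.45, adjusted p = 0.00326). Kif23 (-2.74 ± 0.68), a motor of cytokinesis, and Cenpf (-2.74 ± 0.70), a kinetochore protein, lost their calls without replicate 2 at 6 h (adjusted p = 0.0777 and 0.0874). Tpx2, a spindle assembly factor, went against its list, at 65.5 and 38.8 CPM at 0 h and 368 and 301 CPM at 6 h (2.68 ± 0.34, adjusted p = 1.31e-06). The riser of the replication list, Rfc3, was not called in any fit without a library.

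Over all tested genes 15.2% were called higher and 11.3% lower. Regulators of G1 moved in both directions, with 6 of 24 called higher (25%) and 4 lower (16.7%), and a median of -0.41. Without replicate 1 at 0 h 2 were lower, without replicate 2 at 6 h 1 was, and with library totals 12 were. Ccnd2, cyclin D2, stood at 411 and 480.1 CPM at 0 h and 5748 and 5265 CPM at 6 h (3.63 ± 0.27, adjusted p = 2.41e-10). Ccne1, cyclin E1, stood at 3.20 and 1.71 CPM at 0 h and 37.9 and 18.5 CPM at 6 h (3.49 ± 0.46, adjusted p = 2.35e-06). Cdkn1a, the inhibitor p21, stood at 1511 and 1516 CPM at 0 h and 6614 and 4053 CPM at 6 h (1.82 ± 0.31, adjusted p = 6.42e-05). Cyclins and an inhibitor were thus higher in the same libraries. Ccnd1, cyclin D1, named outside the rule, stood at 2510.4 and 3439 CPM at 0 h and 1179.7 and 981 CPM at 6 h (-1.46 ± 0.32, adjusted p = 0.00122). Rbl1, a retinoblastoma relative, had a log2 fold change of 2.20 ± 0.48.

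Of 36 ribosome biogenesis genes 19 fell and 1 rose, with a median of -1.38, and 30 fell with library totals and 12 without replicate 2 at 6 h. Nolc1, a chaperone of nucleolar particles, stood at 98.1 and 109 CPM at 0 h and 18.2 and 20.01 CPM at 6 h (-2.43 ± 0.35, adjusted p = 7.61e-06). Dkc1, the pseudouridine synthase, stood at 45.7 and 51.8 CPM at 0 h and 7.15 and 13.1 CPM at 6 h (-2.25 ± 0.38, adjusted p = 5.51e-05). Gnl3, a nucleolar GTPase, stood at 91.1 and 61.9 CPM at 0 h and 19.3 and 13.4 CPM at 6 h (-2.23 ± 0.37, adjusted p = 5.28e-05). Utp20 had a log2 fold change of -2.59 ± 0.48. In all of these the 0 h libraries were the higher ones. Of 83 ribosomal protein genes 1 rose and none fell, with a median of 0.21, but 24 fell with library totals. The riser Rps20 (0.85 ± 0.24, adjusted p = 0.008) lost its call without replicate 2 at 0 h (adjusted p = 0.0853) or replicate 2 at 6 h (0.0839). Rps24 stood at 565 and 534 CPM at 0 h and 993 and 889.9 CPM at 6 h (0.78 ± 0.35, adjusted p = 0.106) and Rps2 at 49.0 and 51.8 CPM at 0 h and 71.2 and 82.1 CPM at 6 h (0.61 ± 0.29, adjusted p = 0.128), with negative fold changes with library totals (-0.05 and -0.21), while Rpsa stood at 105 and 191 CPM at 0 h and 100.5 and 77.7 CPM at 6 h (-0.73 ± 0.35, adjusted p = 0.13) and was called lower with the abundant-gene scaling (-1.06) and library totals (-1.55). Genes of this family share reads with processed pseudogenes, and no difference between the families was tested.

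Aminoacyl-tRNA synthetase and amino acid response genes fell in 9 of 27 members and rose in 4, with a median of -0.43. Those shares were 33.3% and 14.8%, against 11.3% and 15.2% of all tested genes. With library totals 17 fell. Without replicate 1 at 0 h 5 fell, without replicate 2 at 0 h 4 fell and 2 rose, and without replicate 1 at 6 h 5 fell. Wars, the tryptophanyl synthetase known as an interferon target, rose to several-fold its starting level, at 13.2 and 11.9 CPM at 0 h and 109 and 105 CPM at 6 h (3.09 ± 0.36, adjusted p = 3.76e-07). Psat1, an enzyme of serine synthesis, stood at 2.72 and 2.92 CPM at 0 h and 49.7 and 68.7 CPM at 6 h (4.38 ± 0.54, adjusted p = 7.03e-07). Sars, the seryl synthetase, stood at 129.7 and 119 CPM at 0 h and 19.7 and 36.1 CPM at 6 h (-2.15 ± 0.33, adjusted p = 1.67e-05), and Eprs had a log2 fold change of -1.56 ± 0.30. The risers and fallers were each apart between groups.

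Of 25 genes of folding and stress in the endoplasmic reticulum none rose and 1 fell, Pdia4 (-0.86 ± 0.31, adjusted p = 0.0434), a disulfide isomerase. Its call was lost in the fit with a replicate block (adjusted p = 0.0524) and without replicate 2 at 0 h (0.349), replicate 1 at 6 h (0.0526) or replicate 2 at 6 h (0.317), and 16 fell with library totals. Calr stood at 1168 and 1405 CPM at 0 h and 685 and 881 CPM at 6 h (-0.72 ± 0.32, adjusted p = 0.106), Ern1 at 18.8 and 24.7 CPM at 0 h and 11.8 and 11.1 CPM at 6 h (-0.93 ± 0.43, adjusted p = 0.122) and Edem1 at 84.3 and 98.4 CPM at 0 h and 162 and 147 CPM at 6 h (0.76 ± 0.30, adjusted p = 0.0675), the last with -0.06 by library totals. Calr and Ern1 were called lower with the abundant-gene scaling (-1.04 and -1.25) and library totals (-1.53 and -1.74). Constitutive proteasome subunits rose in 7 of 34 members (20.6%, against 15.2% of all tested genes), with a median of 0.21. That count was 3 without replicate 2 at 0 h or replicate 2 at 6 h, and with library totals 1 rose and 11 fell. Psmd10, an assembly chaperone, stood at 46.3 and 32.7 CPM at 0 h and 156 and 285 CPM at 6 h (2.48 ± 0.39, adjusted p = 2.58e-05). Psma5 (1.37 ± 0.32) and Psma3 (1.23 ± 0.30) rose less and lost their calls with library totals (0.55 and 0.42), and Psmb7 (0.96 ± 0.29, adjusted p = 0.0153) lost its call without replicate 2 at 0 h (adjusted p = 0.169) or replicate 2 at 6 h (0.0951).

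Lysosomal genes rose in 6 of 48 members and fell in 6, with a median of 0.06, shares near those over all tested genes (15.2% and 11.3%). With library totals 1 rose and 21 fell, 2 rose without either 0 h replicate, and 2 fell without replicate 1 at 6 h. Ctsc, the cathepsin that activates serine proteases, stood at 409 and 400.5 CPM at 0 h and 1885 and 1934 CPM at 6 h (2.24 ± 0.27, adjusted p = 5.25e-07). Npc1, which exports cholesterol from the lysosome, stood at 394 and 438 CPM at 0 h and 124 and 124 CPM at 6 h (-1.75 ± 0.31, adjusted p = 0.000107). Lipa, the lysosomal acid lipase, stood at 1789 and 1719 CPM at 0 h and 962 and 926 CPM at 6 h (-0.89 ± 0.23, adjusted p = 0.0049). The protease was higher and both lipid-handling genes lower in both 6 h libraries. Atp6v1d, a proton pump subunit, had a log2 fold change of 1.54 ± 0.31, or 0.72 and not called with library totals.

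Genes of cell death and survival rose in 11 of 25 members and fell in 2, Bcl2 and Bmf, with a median of 1.03. With library totals 10 rose and 7 fell. Cflar, the inhibitor of caspase 8, stood at 225 and 325 CPM at 0 h and 2852 and 2992 CPM at 6 h (3.41 ± 0.26, adjusted p = 2.86e-10). Ripk2, the kinase downstream of NOD receptors, stood at 7.83 and 8.96 CPM at 0 h and 107 and 134 CPM at 6 h (3.84 ± 0.30, adjusted p = 4.75e-10). Fas, a death receptor, stood at 2.40 and 1.21 CPM at 0 h and 68.3 and 48.4 CPM at 6 h (4.98 ± 0.57, adjusted p = 2.60e-07). Groups were apart in each, and both a death receptor and an inhibitor of its pathway rose. Bcl2a1b, a survival gene with near-identical copies, had a log2 fold change of 3.55 ± 0.38. Neither faller kept its call without replicate 2 at 0 h, replicate 1 at 6 h or replicate 2 at 6 h.

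Inflammasome and pyroptosis genes rose in 11 of 18 members and fell in 3, with a median of 1.35, and 6 rose and 5 fell with library totals. Nlrp3, the sensor, stood at 31.0 and 29.9 CPM at 0 h and 513 and 471 CPM at 6 h (4.01 ± 0.29, adjusted p = 1.02e-10). Casp4, the receptor for cytosolic LPS, stood at 27.1 and 34.5 CPM at 0 h and 608 and 608 CPM at 6 h (4.30 ± 0.32, adjusted p = 2.26e-10). Mefv, encoding pyrin, stood at 2.16 and 2.52 CPM at 0 h and 88.3 and 69.0 CPM at 6 h (5.06 ± 0.41, adjusted p = 8.94e-10). Each was at least several-fold higher in both 6 h libraries, as was Il1b. The fallers, named outside the rule, were Nlrp1b (-2.58 ± 0.56), Txnip (-1.36 ± 0.31) and Gsdme (-2.59 ± 0.83).

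Circadian clock genes had 4 fallers and 1 riser among 17, with a median of -0.85. Without replicate 1 at 0 h, replicate 1 at 6 h or replicate 2 at 6 h 2 fell, while 7 fell with library totals and 7 in the model of the 4 libraries. Nfil3, a repressor of clock outputs, stood at 2.00 and 2.22 CPM at 0 h and 61.9 and 65.4 CPM at 6 h (4.91 ± 0.38, adjusted p = 4.32e-10). Dbp, an output factor that NFIL3 opposes, had 11.5 and 7.96 CPM at 0 h and no count at 6 h, at least 9.07-fold lower against the floor of 3 counts per library. The Dbp relative Tef stood at 23.4 and 13.5 CPM at 0 h and 2.15 and 3.58 CPM at 6 h (-2.66 ± 0.77, adjusted p = 0.0109), with a call lost without replicate 1 at 0 h (adjusted p = 0.0879), replicate 1 at 6 h (0.116) or replicate 2 at 6 h (0.0523). Bhlhe41, given above, and Rora were the other fallers.

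The 14 largest falls included genes for membrane proteins, lipid enzymes and transcription factors, and Bhlhe41, given above, was among them. Tmem273 had 27.5 and 21.7 CPM at 0 h and no count at 6 h, at least 22.9-fold lower. Arhgap19, a GTPase-activating protein, had 66.9 and 89.6 CPM at 0 h and 5 counts in all at 6 h, a ratio of 0 h to 6 h of 94.6 with a counting interval of 40.4 to 292 (adjusted p = 2.32e-09). Tmem86a, a lysoplasmalogenase, stood at 89.3 and 108 CPM at 0 h and 2.15 and 0.597 CPM at 6 h (-6.20 ± 0.63, adjusted p = 3.23e-08). Cerk, ceramide kinase, stood at 101 and 109 CPM at 0 h and 0.715 and 3.29 CPM at 6 h (-5.64 ± 0.47, adjusted p = 1.26e-09). In each of these genes the 6 h libraries were close to 0 and both 0 h libraries far above them. Gcnt1, a glycosyltransferase of O-glycan branching, stood at 153 and 157 CPM at 0 h and 8.22 and 2.69 CPM at 6 h (-4.86 ± 0.51, adjusted p = 6.93e-08). Lpin1, a phosphatidate phosphatase, stood at 30.1 and 29.6 CPM at 0 h and 0.715 and 1.19 CPM at 6 h (-4.91 ± 0.90, adjusted p = 0.00017). Sox4, a transcription factor, stood at 26.0 and 36.2 CPM at 0 h and 1.43 and 0.597 CPM at 6 h (-4.95 ± 0.85, adjusted p = 7.43e-05). The order of the libraries was the same in each. Log2 fold changes were -6.01 ± 0.43 for Nav2, -5.04 ± 0.49 for Lhfpl2, -4.72 ± 0.87 for Zfp704, -4.54 ± 0.63 for Slc45a4, -4.48 ± 0.58 for the semaphorin receptor Plxna2 and -4.42 ± 0.90 for Rab3il1. In the same order, these genes had 6, 13, 5, 8, 9 and 7 counts in all at 6 h. The size of each fall is therefore imprecise.

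Of the 1200 genes called lower at 6 h, the lowest of the 4 stimulated means was at 1 h for 5, at 2 h for 25, at 4 h for 258 and at 6 h for 912. Stab1 was down to 68.0 and 65.6 CPM at 1 h from 163 and 182 CPM at 0 h. Mef2c still stood at 316 and 295 CPM at 1 h and at 46.9 and 63.4 CPM at 4 h. Tmem86a stood at 120.5 and 119 CPM at 1 h and 5.0 and 12.0 CPM at 4 h.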

How the data were processed

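Counts of 20 libraries were deposited by the authors as unnormalized read counts of Ensembl genes, and each column was matched to its library by name. STAR, HTSeq, DESeq2 and mm10 appear in the submitters' processing notes without versions, and the strand option used in counting is not given in the sources used here, so reads of a gene and its antisense partner may not be told apart. Per the labels' protocols, barcoded first strands were pooled by Actb qPCR and amplified for 12 cycles of PCR.

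The test was that of edgeR 4.0.16 in R 4.3.3 (filterByExpr by group, TMM, glmQLFit robust, glmQLFTest). A single model of all 20 libraries held 1 coefficient for each group, and p was adjusted over all 10663 genes by Benjamini-Hochberg. Levels are TMM-scaled CPM. Errors after ± on log2 fold changes are standard errors from the F statistic, and each group has 2 libraries. Tested on simulated data of 10663 genes with 200 changed for 6 h against 0 h, the fit recovered 26 of 100 genes changed by 1 log2 unit. It recovered 92 of 100 changed by 2, with 9 false calls among the unchanged genes. The simulation gave all genes and libraries 1 common spread and changed only genes above a minimum level, so recovery in the real data may differ.

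The members, lists and tests were chosen with earlier results of these data known, and lists are described by counts and medians with no test. Named genes are the 14 largest rises and 14 largest falls that were called, reached 20 CPM in the group with the higher mean and had groups that did not overlap, the 4 members of each list that ranked first by p (fewer in short lists), a fixed panel, all immediate-early genes, and the 8 most abundant genes with a log2 fold change of at least 3. Predicted genes were left out, and genes named outside the rule were chosen after their values were seen. Alternatives were other scalings, filters and tests (limma 3.58.1, DESeq2 1.42.0), smaller models, the replicate number as a block and fits without 1 library. Scaling by library totals was added after the data were seen. Symbols came from GENCODE M21 for 21822 of 22165 genes. Some genes are not reported here.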

Additional observations from a re-analysis of the deposited data

How the results depend on the processing

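For 6 h against 0 h, the calls numbered 2826, and 1891 genes were lower with TMM factors from genes averaging 32 CPM or more. Library totals gave 4578 calls, 890 higher and 3688 lower. A test against a fold change of 1.5 gave 787 lower. The model of the 10 Ctrl libraries gave 4697 calls with 2335 lower, and that of the 4 libraries gave 4643 with 2286 lower. Leaving out 1 library gave 1839 to 1965 calls, 1122 to 1330 higher and 621 to 774 lower. For 6 h against 1 h, with 2252 calls, library totals gave 742 higher and 2069 lower, the test against a fold change of 1.5 gave 663 lower, the model of the 10 Ctrl libraries gave 4036 calls (1933 and 2103), and that of the 4 libraries gave 3716 with 1888 lower. Leaving out 1 library gave 1471 to 1547 calls, 833 to 950 higher and 521 to 697 lower.

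Numbered replicates did not deviate together between 0 h and 6 h (correlation of deviations 0.063) or between 1 h and 6 h (-0.105), and the labels give no shared source. With the replicate number as a block, 2767 genes were called at 6 h against 0 h (1604 higher, 1163 lower).

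Of 176 named genes that were called, 143 were called the same way under every alternative run, 18 lost the call or turned sign under a scaling, and 26 lost the call when 1 library was left out. The fold change turned negative for Ier5 with the abundant-gene scaling (-0.12). With library totals it did so for Ier5 (-0.61), Cd74 (-0.28), H2-Ab1 (-0.30), Clec4d (-0.0051), Rps24 (-0.0458), Rps2 (-0.21) and Edem1 (-0.062). Gapdh was negative with both (-0.24 and -0.73), and without replicate 1 at 0 h (-0.14) or replicate 1 at 6 h (-0.07), in a range of -0.14 to 0.37 over the fits without 1 library. The cause was not tested. With 2 libraries per group and 3655977 to 4144450 counts at 6 h, changes of 1 log2 unit were mostly missed in simulated data, and genes at 3 counts or fewer in each library of a group could be given only a bound or a counting interval.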

Other observations

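Genes with Zfp symbols, most of them of the C2H2 zinc finger class and many encoding DNA-binding repressors, were tested in 259 members. The set was taken by symbol and includes Zfp36, given above as a destabiliser of cytokine mRNA, which is outside that class. Of its members 13 rose (5.0%), Zfp36 among them, and 12 fell (4.6%), against 15.2% and 11.3% of all tested genes. The median was -0.33 on the log2 scale. With library totals 7 rose and 54 fell. Without replicate 1 at 0 h 6 rose and 6 fell, without replicate 2 at 0 h 6 rose and 8 fell, without replicate 1 at 6 h 8 rose and 6 fell, and without replicate 2 at 6 h 10 rose and 6 fell. Zfp800 stood at 67.5 and 53.4 CPM at 0 h and 1324 and 836 CPM at 6 h (4.16 ± 0.41, adjusted p = 2.22e-08), and Zfp281 at 85.3 and 68.3 CPM at 0 h and 385 and 294 CPM at 6 h (2.14 ± 0.30, adjusted p = 5.59e-06). Both 6 h libraries were above both 0 h libraries for these genes. Zfp326 stood at 57.5 and 57.0 CPM at 0 h and 17.5 and 14.6 CPM at 6 h (-1.83 ± 0.33, adjusted p = 0.000136) and was lower in both.

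Transcripts of the mitochondrial genome took 1.81 and 1.39% of the counts at 0 h and 1.32 and 1.30% at 6 h. Of its genes 15.4% rose and 7.69% fell, against 15.2% and 11.3% of all tested genes. Of 13 genes 2 rose, mt-Nd4l and mt-Nd4, and neither was called without replicate 1 at 0 h, replicate 2 at 0 h or replicate 1 at 6 h (adjusted p from 0.144 to 0.394). Without replicate 2 at 6 h 4 rose, and none rose with the abundant-gene scaling or library totals. The faller mt-Nd6, the one protein gene of the light strand, stood at 38.4 and 155 CPM at 0 h and 11.1 and 10.5 CPM at 6 h (-3.16 ± 0.73, adjusted p = 0.002), and its call was lost without replicate 2 at 0 h (adjusted p = 0.114). mt-Nd5, which lies opposite it, stood at 168 and 94.5 CPM at 0 h and 544 and 206 CPM at 6 h (1.52 ± 0.57, adjusted p = 0.0506), and was called higher without replicate 2 at 6 h (2.05, adjusted p = 0.0236). Reads of genes on opposite strands may not be told apart here, since the strand option is not given.

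Switch-like genes were few. Under 1 CPM in both 0 h libraries and at least 20 CPM in both 6 h libraries were 19 genes, and 3 showed the reverse. The limit of 1 CPM lay near 3 counts at 6 h (1.07 and 0.896 CPM). It lay well above 3 counts at 0 h (0.240 and 0.302 CPM), so these numbers of genes are not directly comparable.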
